A study of Mus musculus with 36 samples.

Results

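The formyl peptide receptor (Fpr) family of the mouse was examined in 3 olfactory tissues. The members were the listed genes Fpr1, Fpr2, Fpr3, Fpr-rs3, Fpr-rs4, Fpr-rs6 and Fpr-rs7, found by mapping each transcript entry to its gene symbol and summing the values of a gene. Of these 7 genes, 6 were measured, out of 24690 genes in all, each through 1 transcript entry. Fpr-rs7 was not analysed here. Fpr1 and Fpr2 were taken as the immune members, and Fpr3, Fpr-rs3, Fpr-rs4 and Fpr-rs6 as the vomeronasal members.

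Formyl peptide receptors are G protein-coupled receptors that bind peptides carrying a formylated methionine, the residue with which bacteria and mitochondria start their proteins. Fpr1 and Fpr2 are known from neutrophils and macrophages, which follow such peptides towards bacteria and damaged tissue and answer with an oxidative burst. In the mouse the family has expanded, and the additional genes are known from vomeronasal sensory neurons, the chemosensory cells of the vomeronasal organ. Fpr3 is described in basal neurons, which use the G protein subunit encoded by Gnao1, and the Fpr-rs genes in apical neurons, which use the one encoded by Gnai2.

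RNA-seq libraries were made from the main olfactory epithelium (MOE), which holds the olfactory sensory neurons of the nose, the vomeronasal organ (VNO), and the olfactory bulb (OB), the brain region to which the neurons of both project. All mice were C57BL/6 without a stated transgene or treatment, were weaned at 3 weeks and were taken at 6 months of age, after housing at 4 per cage. Sex-separated females (SF) and sex-separated males (SM) had cage mates of their own sex only, while both sexes shared the cages of the sex-combined groups, CF for the females and CM for the males. According to the paper, SF and SM cages stood in rooms that held a single sex. Litters were born in the sex-combined cages, and the pups were killed within a day. Sex and room thus cannot be told apart between SF and SM, nor housing and breeding between the housings. Each of the 12 combinations of tissue, sex and housing had 3 libraries. Each library was a pool of RNA from several mice, 2 according to the labels and 3 according to the methods, and the sources used here do not settle whether pools share a mouse. That open question concerns pools of the same tissue. According to the paper, all tissues were taken from each mouse, so libraries of different tissues in a group came from shared animals. The main fit between tissues and the pooled ratios treated these libraries as independent. With a block for group and replicate number in the tissue fit, no count of called members changed, as given at the end. Whether equal numbers stand for the same mice is not settled here, and the effect on the pooled ratios was not tested. Because each library is a pool, the p-values below measure the spread between pools, not between mice. In bulk tissue, fewer cells of a type and less RNA per cell cannot be told apart.

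The estimated fragments on listed transcripts ran from 3016524 to 6779893 per library, and no pair of libraries held identical values. The tissue labels matched the marker genes. Trpc2, the channel of vomeronasal sensory neurons, was at 43.0 FPKM in VNO (SD 4.85, n = 12), at 0.938 in MOE and at 0.199 in OB. All 7 olfactory sensory neuron markers were lower in VNO than in MOE, and all 6 bulb neuron markers were lower in MOE than in OB (limma, adjusted p under 0.05). FPKM, the unit of the deposited values, scales the fragments of a transcript by its length and by the depth of the library, so that levels can be compared between genes.

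The 6 genes lie on chromosome 17. In the mm9 build used by the deposited tables, Fpr1 (chr17:18013435-18020903), Fpr2 (chr17:18024788-18030916), Fpr3 (chr17:18107422-18108641) and Fpr-rs4 (chr17:18158697-18159668) stand next to each other, and Fpr-rs6 (chr17:20319042-20320061) and Fpr-rs3 (chr17:20760810-20761841) lie more than 2 Mb further along. No other gene in the tables overlapped any of these loci. The GENCODE M21 transcripts used for the coding sequences are listed with 1 exon for each vomeronasal member and with 2 for Fpr1 and Fpr2. These counts do not show whether the coding part itself is split.

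Because reads of 50 bases have to be told apart between close relatives, the start of each coding sequence is shown first, for all 7 listed genes. Sequences are from GENCODE M21 transcripts (GRCm38), in 5′ to 3′ direction from the start codon, and cover the first 90 columns of an alignment in which only Fpr1 has no gap. Capitals mark bases that differ from Fpr-rs6 or that Fpr-rs6 lacks.
Fpr-rs6: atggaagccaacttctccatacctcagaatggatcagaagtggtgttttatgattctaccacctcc
Fpr-rs7: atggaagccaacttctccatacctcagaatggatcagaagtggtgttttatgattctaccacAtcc
Fpr-rs3: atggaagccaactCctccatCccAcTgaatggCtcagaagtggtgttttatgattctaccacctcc
Fpr-rs4: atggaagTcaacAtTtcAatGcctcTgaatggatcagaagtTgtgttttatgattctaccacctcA
Fpr2: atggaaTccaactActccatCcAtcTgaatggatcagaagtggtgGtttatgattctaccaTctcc
Fpr3: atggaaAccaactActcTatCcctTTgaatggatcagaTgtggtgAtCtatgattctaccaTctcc
Fpr1: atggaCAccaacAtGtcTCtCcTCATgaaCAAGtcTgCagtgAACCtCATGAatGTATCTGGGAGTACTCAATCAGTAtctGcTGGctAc
In this stretch Fpr-rs7 differed from Fpr-rs6 at 1 base, Fpr-rs3 at 5, Fpr2 at 7, Fpr-rs4 at 8 and Fpr3 at 10, and Fpr1 differed from it or had an additional base at 55 positions.

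Over the whole coding sequence, Fpr-rs6 and Fpr-rs7 were 96.7% identical, with 34 differing bases of 1017 aligned. They shared 236 windows of 50 bases, which is 24.3% of the windows of Fpr-rs6 and 24.4% of those of Fpr-rs7. A single read inside such a window cannot be assigned to one gene of this pair from its sequence, whereas a read pair is ambiguous only where both of its reads are. The values of Fpr-rs6 are therefore uncertain by an amount that these windows do not measure. Fpr2 and Fpr3 were 88.2% identical and shared 77 windows, 7.65% of either gene. Fpr-rs3 and Fpr-rs4 were 85.9% identical and shared no window of 50 bases with each other or with any other member. Fpr1 was the most distant gene, with 63.3% to 68.7% identity to the others and 1 window shared with Fpr2.

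Across the tissues, the vomeronasal members were found in VNO and were at or near 0 elsewhere, whereas both immune members were low in all 3 tissues and lowest in OB. The plot of all members by library shows these values. How many fragments an FPKM rests on was estimated from its confidence limits. These estimates, and every interval and limit given from them, cover counting error only, because the reads carried no molecular identifiers and so need not stand for independent molecules.

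**Figure D1:**
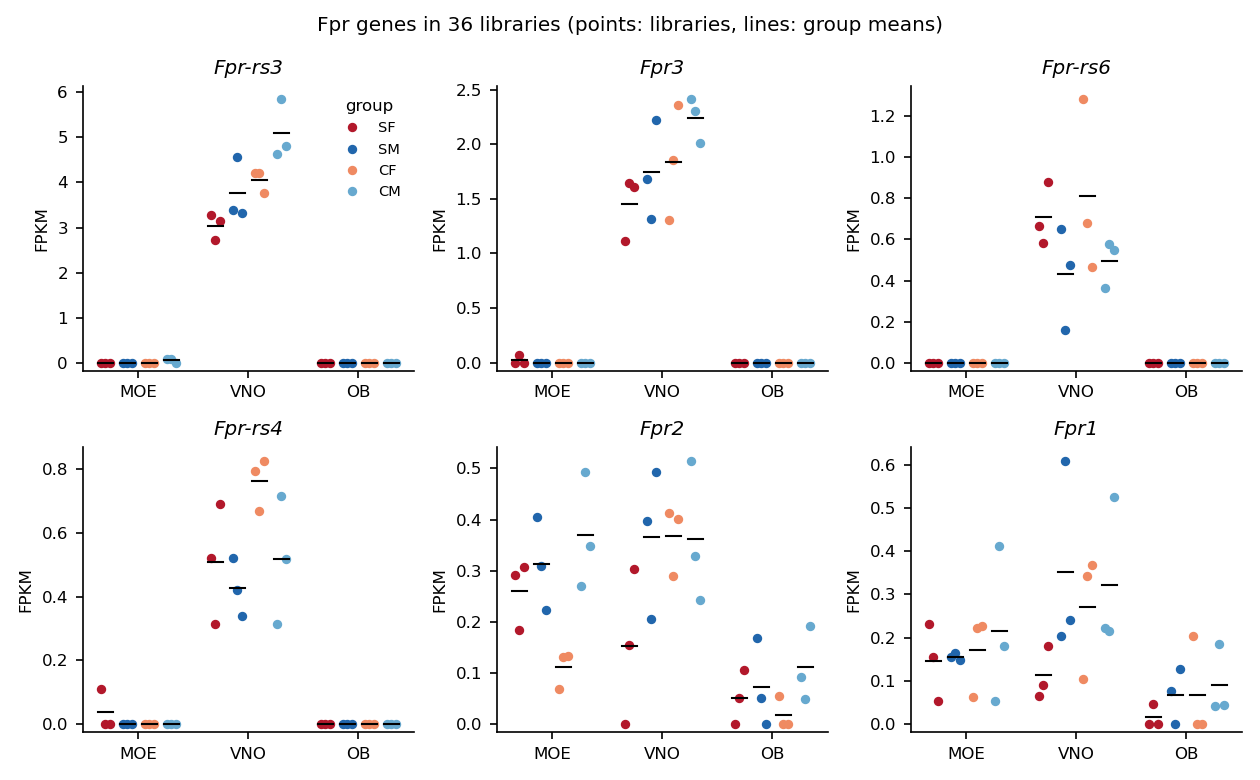
FPKM (linear axes, a separate scale for each gene) of the 6 measured Fpr genes in 36 libraries, by tissue and group. Points are libraries and lines are means of 3 libraries. Fpr-rs3, Fpr3, Fpr-rs6 and Fpr-rs4 stood above 0 in all 12 VNO libraries and at 0 in all OB libraries, while Fpr2 and Fpr1 reached at most 0.609 FPKM in any library.

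Fpr-rs3 had the highest level of the family, with 3.28, 2.72 and 3.13 FPKM in the 3 SF libraries of VNO, 3.39, 4.57 and 3.31 in SM, 4.21, 4.21 and 3.76 in CF, and 4.63, 5.85 and 4.80 in CM. In MOE it was at 0.0795 and 0.0870 FPKM in CM libraries 1 and 2, which is 1 fragment each, and at 0 in the other 10 libraries, and in OB it was at 0 in all 12. VNO lay apart from both other tissues, as it did upwards for 19.2% of all genes against MOE and 28.2% against OB. Over pooled libraries, 686 fragments in VNO stood against 2 in MOE, a ratio of 305 with a 95% interval of 84.2 to 2526 (exact binomial). Against OB, where a floor of 3 fragments over the 12 libraries was used, Fpr-rs3 was at least 233-fold higher in VNO.

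Fpr3, the vomeronasal member placed in basal neurons, had 1.11, 1.65 and 1.61 FPKM in SF, 1.68, 1.32 and 2.22 in SM, 1.31, 1.85 and 2.36 in CF, and 2.41, 2.31 and 2.01 in CM. Outside VNO it was seen only in SF library 2 of MOE, at 0.0665 FPKM from 1 fragment. Again the tissues did not overlap, and the pooled ratio of VNO to MOE was 347 (95% interval 62.0 to 13769), from 386 fragments against 1. Fpr3 was at least 133-fold higher in VNO than in OB.

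Fpr-rs6 ranged more widely. Its FPKM in VNO was 0.666, 0.582 and 0.879 in SF, 0.653, 0.160 and 0.477 in SM, 1.28, 0.682 and 0.467 in CF, and 0.363, 0.577 and 0.549 in CM. All MOE and OB libraries were at 0, so that the 111 fragments in VNO make it at least 33.0-fold higher than in MOE and at least 37.3-fold higher than in OB. The lowest and highest libraries, SM2 and CF1, rested on 1.99 and 17.98 estimated fragments.

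Fpr-rs4 had 0.522, 0.316 and 0.692 FPKM in SF, 0.522, 0.422 and 0.338 in SM, 0.794, 0.669 and 0.828 in CF, and 0.316, 0.718 and 0.520 in CM. A single fragment in SF library 1 of MOE (0.111 FPKM) was its only trace outside VNO. The 82 fragments in VNO gave a ratio of 72.0 to MOE (95% interval 12.6 to 2893), and a level at least 27.5-fold higher than in OB.

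Fpr2, a receptor of myeloid cells that also binds annexin A1 and the cathelicidin peptide, was at 0, 0.155 and 0.303 FPKM in SF of VNO, 0.397, 0.206 and 0.493 in SM, 0.412, 0.289 and 0.401 in CF, and 0.515, 0.328 and 0.242 in CM. In MOE its values were 0.291, 0.184 and 0.308 in SF, 0.405, 0.309 and 0.224 in SM, 0.0685, 0.131 and 0.134 in CF, and 0.270, 0.493 and 0.349 in CM. In OB it ran from 0 to 0.192 FPKM with a median of 0.0509. MOE and VNO overlapped almost completely, with a pooled ratio of VNO to MOE of 1.21 (95% interval 0.833 to 1.79). Both were above OB, by ratios of 5.24 (2.94 to 10.1) for VNO and 4.33 (2.35 to 8.49) for MOE.

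Fpr1, the high-affinity receptor of formylated bacterial peptides on neutrophils, was at 0.0649, 0.0914 and 0.181 FPKM in SF of VNO, 0.203, 0.609 and 0.241 in SM, 0.105, 0.342 and 0.368 in CF, and 0.222, 0.216 and 0.524 in CM. Its MOE values ran from 0.0526 to 0.413 with a median of 0.160, and its OB values from 0 to 0.203 with a median of 0.0434. The pooled ratio of VNO to MOE was 1.55 (95% interval 1.01 to 2.37), that of VNO to OB 4.45 (2.49 to 8.34) and that of MOE to OB 2.87 (1.54 to 5.63). No library had more than 12 fragments of Fpr1, so that single libraries are little more than presence or absence.

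The levels were then compared between tissues by limma on log2(FPKM + 0.5), a scale that understates the change of low genes, in 1 fit over the 36 libraries with Benjamini-Hochberg adjustment over 17447 genes. Between VNO and MOE, 4 of the 6 members were called at an adjusted p under 0.05, all higher in VNO, against 81.6% of all genes in either direction and 35.6% higher in VNO. These were the 4 vomeronasal members, which passed the filter of a mean of 0.1 FPKM only through their VNO libraries, so that their count is a description. They had log2 differences of 3.10 for Fpr-rs3 (SE 0.0459), 2.17 for Fpr3 (SE 0.0626), 1.11 for Fpr-rs6 (SE 0.0766) and 1.03 for Fpr-rs4 (SE 0.0573). Fpr1 differed by 0.17 (95% interval -0.02 to 0.36, adjusted p = 0.10) and Fpr2 by 0.08 (-0.08 to 0.24, adjusted p = 0.332). The adjusted p of Fpr1 passed the threshold without CM library 2 of MOE (log2 difference 0.22, adjusted p = 0.0320), without CF library 1 of VNO (0.21, adjusted p = 0.0405) and with upper quartile scaling (0.24, adjusted p = 0.0210).

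Between VNO and OB all 6 members were called higher in VNO, against 82.9% of all genes in either direction and 39.3% higher in VNO. The immune members differed by less than the vomeronasal ones on the log2 scale, Fpr2 by 0.51 (95% interval 0.35 to 0.67) and Fpr1 by 0.43 (0.24 to 0.62). Between MOE and OB, 2 of 6 members were called, against 84% of all genes in either direction and 46.6% higher in MOE. They were Fpr2, higher in MOE by 0.43 (adjusted p = 7.88e-06, limma), and Fpr1, higher by 0.26 (adjusted p = 0.0125, limma). With quantile normalization neither call between MOE and OB remained, with differences of 0.16 for Fpr2 (adjusted p = 0.0837) and 0.02 for Fpr1 (adjusted p = 0.855), and Fpr1 was no longer called between VNO and OB (0.16, adjusted p = 0.160).

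Within VNO the mean FPKM over the 12 libraries was highest for Fpr-rs3. It stood at 3.99 ± 0.889 (SD, n = 12), Fpr3 at 1.82 ± 0.445, Fpr-rs6 at 0.611 ± 0.277, Fpr-rs4 at 0.555 ± 0.184, Fpr2 at 0.312 ± 0.147 and Fpr1 at 0.264 ± 0.169. Fpr-rs3 was above Fpr3 in 12 of 12 libraries without overlap of their ranges, and Fpr3 was above Fpr-rs6 in 12 of 12 libraries. The neighbours further down could not be ordered beyond their spread: Fpr-rs6 exceeded Fpr-rs4 in 9 of 12 libraries, Fpr-rs4 exceeded Fpr2 in 10 of 12, and Fpr2 exceeded Fpr1 in 8 of 12. Of the summed FPKM of the 4 vomeronasal members, Fpr-rs3 made up 56.9% ± 5.97, Fpr3 26.2% ± 5.38, Fpr-rs6 8.96% ± 4.10 and Fpr-rs4 7.95% ± 2.31 (SD, n = 12). The vomeronasal members made up 88.8% to 98.8% of the summed FPKM of all 6 genes in VNO, with a median of 91.7%.

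Beside the other vomeronasal receptors, the members spread over the range of levels. Of 343 Vmn1r and Vmn2r genes, whose median was 0.435 FPKM in VNO, 29 had a higher mean than Fpr-rs3, 72 a higher mean than Fpr3, 151 a higher mean than Fpr-rs6 and 161 a higher mean than Fpr-rs4. Together the 4 genes contributed 1.22% to 1.91% of the summed FPKM of the Vmn1r, Vmn2r and Fpr genes in VNO, with a median of 1.47%.

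The neighbourhood on chromosome 17 was vomeronasal too. Between the start of Fpr1 and the end of Fpr-rs3, a span of 2748407 bp, the tables listed 23 other genes, of which 21 were Vmn2r and 2 were Vmn1r genes. Their mean FPKM in VNO ran from 0.0119 for Vmn2r91 to 4.73 for Vmn2r96 with a median of 1.09, and none exceeded 0.0108 in MOE or 0.00233 in OB. The immune members lie at one end of this span, 3885 bp apart, and Fpr2 lies 76506 bp from Fpr3. On the far side of Fpr1 the next gene was Has1, a hyaluronan synthase, which had its highest mean, 0.468 FPKM, in OB. Fpr-rs6 lies between Vmn2r104 and Vmn2r105, at 1.93 and 4.44 FPKM in VNO, and Fpr-rs3 between Vmn2r110 and Vmn1r226, at 0.414 and 1.86 FPKM.

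**Figure D2:**
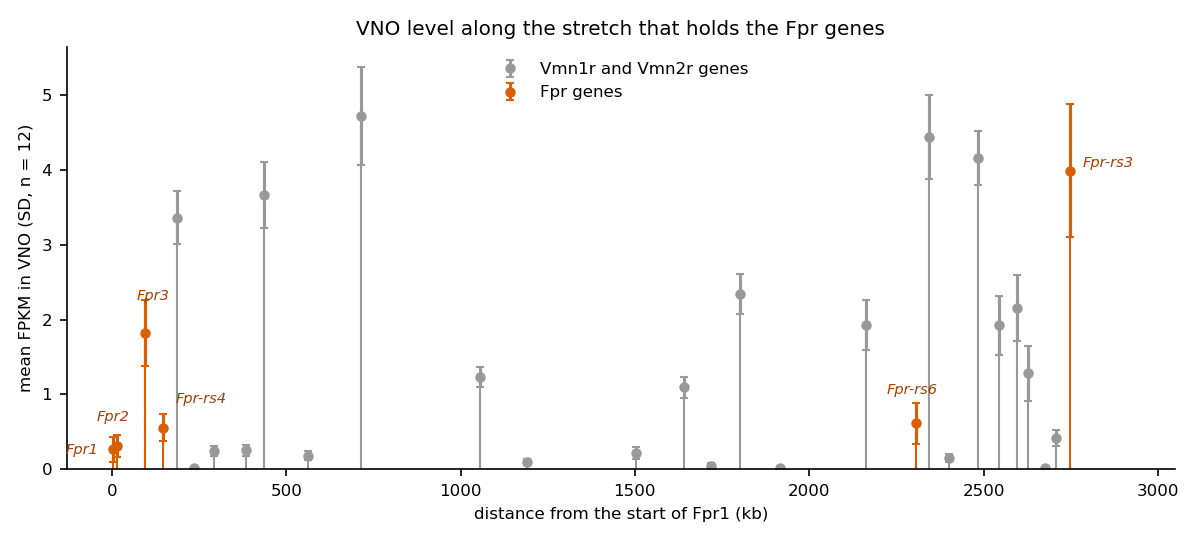
Mean FPKM in VNO (linear axis; error bars, SD of 12 libraries) of the 29 genes in the span, against the distance of each gene's middle from the start of Fpr1 in kb. Fpr genes are orange and Vmn1r and Vmn2r genes grey. Fpr1 and Fpr2 sit at the left end below 0.4 FPKM, and Fpr-rs3 at the right end at 3.99 FPKM.

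Between the sexes and housings, the vomeronasal members were compared in a fit of the 12 VNO libraries over the 13849 genes whose FPKM averaged 0.5 or more. None of the 4 was called in any of the 5 contrasts at an adjusted p under 0.05 (limma). Of all genes, 0.0722% passed it for SF against SM, 0.0433% for CF against CM, 0.123% for females against males over both housings, and 0% for housing or for the interaction of sex and housing. At an unadjusted p under 0.05, limma gave 0 of 4 members between SF and SM (8.8% of all genes), 1 between CF and CM (3.94%), 2 for the females and males of both housings (6.72%), 1 between housings (7.57%) and 0 for the interaction (5.26%).

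Fpr-rs3 had the lowest p-values of the 4 vomeronasal members in VNO, except for the interaction. By sex, all 3 SF libraries were below all 3 SM libraries (a pattern found for 13% of all genes) and all 3 CF libraries below all 3 CM libraries (3.26% of all genes). Its log2 difference of females to males was -0.27 over both housings (SE 0.0856, adjusted p = 0.474, limma), from means of 3.55 and 4.43 FPKM (two-sided exact permutation p = 0.0844). By housing, its mean was 4.58 ± 0.721 FPKM in the sex-combined and 3.40 ± 0.621 in the sex-separated libraries (SD, n = 6), a log2 difference of 0.38 (95% interval 0.20 to 0.57). The limma test gave an adjusted p of 0.617 for this difference, with 0.595 to 0.989 under the alternative settings, at an unadjusted p of 0.000804. A two-sided exact permutation test over the 12 libraries gave p = 0.00866, where the smallest possible is 0.00216. The groups overlapped through SM library 2, whose 4.57 FPKM exceeded 3 of the 6 sex-combined libraries. Leaving out each library in turn kept the difference between 0.34 and 0.45.

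Fpr3 had log2 differences in the same directions, 0.28 by housing (95% interval -0.01 to 0.56, adjusted p = 0.652) and -0.22 for females to males (-0.50 to 0.06, adjusted p = 0.831). For Fpr-rs6 the difference of females to males was positive, 0.38 (0.01 to 0.76, adjusted p = 0.741), with means of 0.760 and 0.463 FPKM (two-sided exact permutation p = 0.0368, unadjusted). Fpr-rs4 was at 0.22 by sex (-0.06 to 0.50, adjusted p = 0.831) and at 0.23 by housing (-0.05 to 0.50, adjusted p = 0.699). The estimated differences by sex thus had opposite signs within the family, negative for Fpr-rs3 and Fpr3 and positive for Fpr-rs6 and Fpr-rs4, and none passed the limma threshold. The interaction of sex and housing lay between -0.22 for Fpr-rs4 and 0.06 for Fpr3, with adjusted p-values of at least 0.920.

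**Figure D3:**
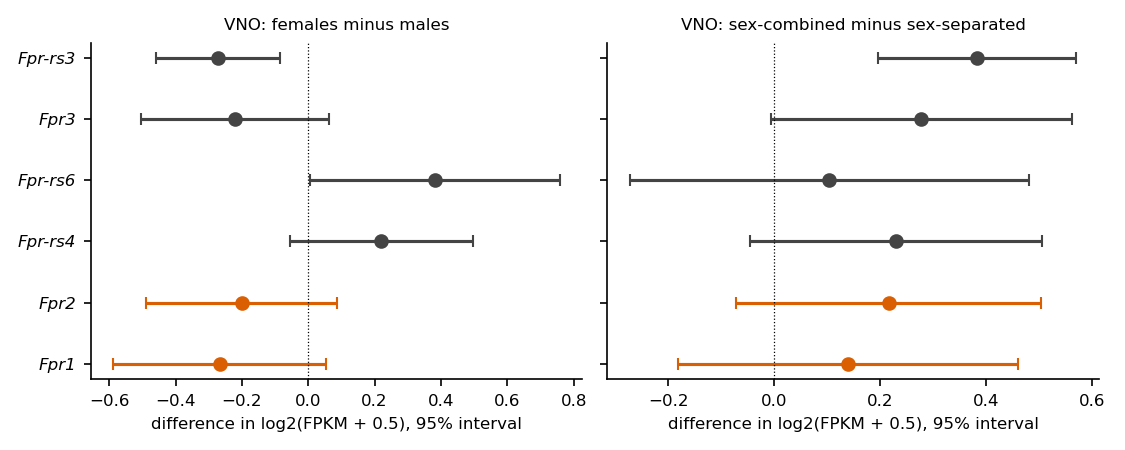
Differences in log2(FPKM + 0.5) in VNO with 95% intervals from limma, for females minus males (left) and sex-combined minus sex-separated libraries (right). Black marks the vomeronasal members (genes with a mean of at least 0.5 FPKM) and orange the immune members (from a fit with a minimum of 0.1 FPKM). No difference shown passed an adjusted p of 0.05, and Fpr-rs3 is the gene whose intervals lie off 0 in both panels.

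The summed FPKM of the 4 vomeronasal members lay between 5.27 and 6.32 in SF, between 6.25 and 6.47 in SM, between 7.41 and 7.60 in CF, and between 7.72 and 9.45 in CM. All 6 sex-combined libraries were above all 6 sex-separated libraries, a pattern that 0.318% of 13849 single genes showed upwards. None of the 4 members showed it alone, and the share among single genes gives no rate for sums of genes. The sum is given as a description without a test, since the genes were chosen with results known. Other vomeronasal values moved with it in part. The Vmn1r genes summed to 172 to 220 FPKM in the sex-separated and 171 to 232 in the sex-combined libraries. For the Vmn2r genes the sums were 245 to 287 and 253 to 300, so that both overlapped between housings. Trpc2 was at 33.3 to 44.5 FPKM in the sex-separated and 41.6 to 50.4 in the sex-combined libraries, and the sums of 6 markers of vomeronasal neurons, 4 of which were higher in MOE than in VNO, were 157 to 186 in SF, 172 to 209 in SM, 195 to 219 in CF and 180 to 219 in CM. Set against Trpc2, the sum of the 4 Fpr genes was 14.1% to 19.4% in the sex-separated libraries and 15.7% to 18.9% in the sex-combined ones. As a share of all vomeronasal receptor FPKM it was 1.22% to 1.49% and 1.47% to 1.91%. Both pairs of ranges overlapped, through SM library 2, which had the highest sex-separated value of each. The part of the neuron markers in the housing difference was not tested. Index adapters differed between the housings in every tissue, so housing and adapter set cannot be told apart. The RNA integrity numbers in the paper also tended to be lower in the sex-combined VNO pools than in the sex-separated ones, with overlap. The part of RNA integrity in the housing difference was not tested.

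**Figure D4:**
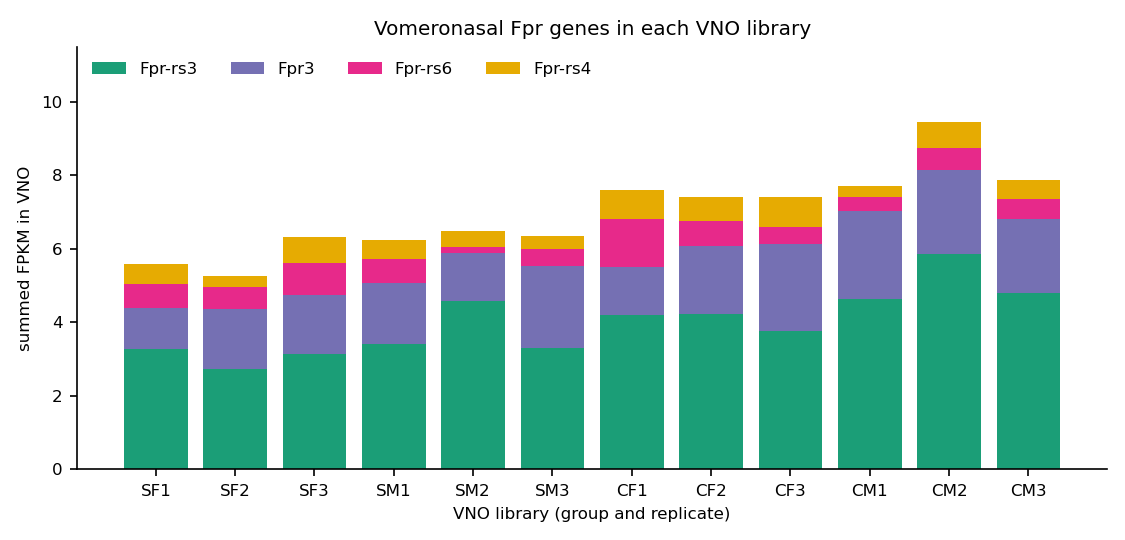
Stacked FPKM of the 4 vomeronasal Fpr genes in each of the 12 VNO libraries (vertical axis, summed FPKM from 0). The 6 sex-separated libraries (SF, SM) end at 5.27 to 6.47 and the 6 sex-combined libraries (CF, CM) at 7.41 to 9.45, with Fpr-rs3 as the largest part of every bar.

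Fpr1 and Fpr2 were below a mean of 0.5 FPKM in every tissue and were therefore compared in fits with a minimum of 0.1, over 16284 genes in MOE and 16306 in VNO. Neither was called in any contrast in either tissue. Over all genes of these fits, the share called in MOE was 0.0676% for SF against SM, 0.0368% for CF against CM, 0.0614% by sex, 0.0798% by housing and 0.0246% for the interaction. In VNO it was 0.0736%, 0.0429%, 0.11%, 0% and 0% in the same order. In MOE, every CF value of Fpr2 was under every CM value, as for 0.59% of all genes, at means of 0.111 ± 0.0370 and 0.370 ± 0.113 FPKM (SD, n = 3), a log2 difference of -0.50 (SE 0.141). Its adjusted p was 1 in limma at an unadjusted p of 0.00272, with 2.3% of all genes under 0.05, and the two-sided exact permutation test gave p = 0.1, the smallest it can give. Over both housings Fpr2 in MOE had means of 0.186 FPKM in females and 0.341 in males (two-sided exact permutation p = 0.0195 with 6 libraries per sex; limma adjusted p = 1), on 1 to 7 fragments a library, and 2.18% of all genes had an unadjusted p under 0.05 there.

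In VNO, every SF value of Fpr1 was under every SM value, as for 12.1% of all genes, at means of 0.113 ± 0.0610 and 0.351 ± 0.224 FPKM (SD, n = 3), with a log2 difference of -0.45 (limma, adjusted p = 0.590). Fpr2 differed by -0.42 between the same groups (adjusted p = 0.582, limma), with its only value of 0 in SF library 1. Fpr1 was also lowest in that library, which had the fewest estimated fragments in VNO, 3373400 against a median of 5500980. Between CF and CM the differences were -0.09 for Fpr1 and 0.02 for Fpr2 (adjusted p = 1 for both, limma). The female to male differences of the 2 housings were not shown to differ, with an interaction of -0.36 for Fpr1 and -0.44 for Fpr2 (adjusted p = 0.908 for both, limma). Beside this, 0 of 9 neutrophil genes passed the threshold for SF against SM in VNO (limma), with 4 at an unadjusted p under 0.05 and a median log2 difference of -0.41 against -0.08 over all genes, and their part in the Fpr1 values was not tested.

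The immune members were set beside marker lists of the cells known to carry them. Of 16 relations between a member and a marker list across the 12 libraries of a tissue, 1 passed an adjusted p of 0.05, that of Fpr1 with the 12 neutrophil genes in VNO. Pearson's r was 0.861 (permutation p = 0.00031, adjusted p = 0.00496) and Spearman's rho 0.888 (permutation p = 0.00017, adjusted p = 0.00272), on log2(FPKM + 0.5) and the mean of the list on the same scale. Without CM library 3 and SF library 1, the libraries farthest from the median of the list, r was 0.773. Within housings r was 0.887 in the 6 sex-separated libraries (exact permutation p = 0.00278) and 0.829 in the 6 sex-combined ones (exact permutation p = 0.0444). Within sexes it was 0.990 in the 6 female libraries (exact permutation p = 0.00278) and 0.658 in the 6 male ones (exact permutation p = 0.197). The values within housings and sexes reuse the same 12 libraries and were chosen after the relation was seen. They describe it and give no further support.

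**Figure D5:**
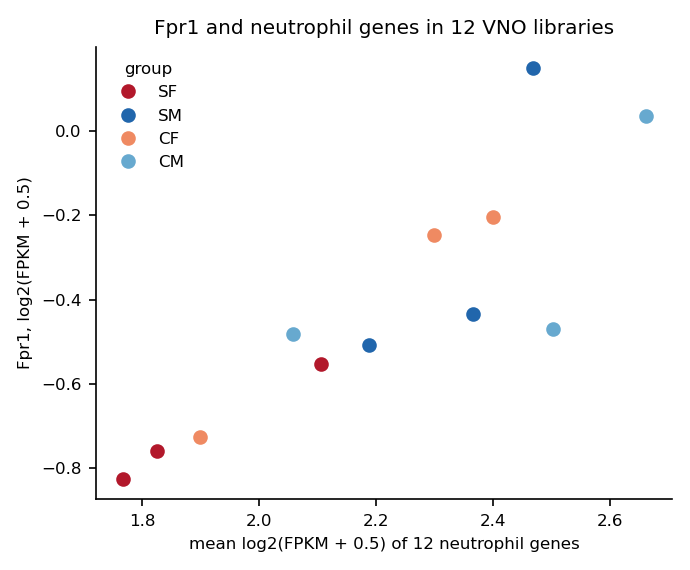
Fpr1 in log2(FPKM + 0.5) against the mean log2(FPKM + 0.5) of 12 neutrophil genes in the 12 VNO libraries, coloured by group. SF1, SF2 and CF1 lie at the lower left and SM2 and CM3 at the top, with r = 0.861 over all 12.

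Lactoferrin (Ltf), which neutrophil granules hold but which glands also secrete, made up most of the list's summed FPKM in VNO, at a mean of 1424, but was 1 of 12 equal terms in the mean of log2 values used here. With it the list's sums were 1093 to 1325 FPKM in SF, 1540 to 1689 in SM, 1349 to 1595 in CF and 1590 to 1878 in CM. Between VNO and MOE the list did not move together, with 5 genes higher in VNO, 4 lower and a median log2 difference of -0.13. Among those higher were the neutrophil receptor genes Csf3r and Cxcr2, at 1.13 and 1.19 FPKM in VNO against 0.191 and 0.177 in MOE, and among those lower were Ngp, at 1.20 against 3.79, and Mpo, at 0.258 against 0.673. In MOE, Fpr1 and the same list had an r of 0.322 (permutation p = 0.310, adjusted p = 0.620) and a rho of 0.308, and r was 0.673 without SF libraries 1 and 2. For Fpr2 and the neutrophil list in VNO r was 0.473 (permutation p = 0.120, adjusted p = 0.382), and for the 11 macrophage and microglia genes it was 0.125 with Fpr2 and 0.250 with Fpr1. Without CF library 2 and CM library 1 of VNO, r with the macrophage and microglia genes was 0.692 for Fpr2 and 0.210 for Fpr1. The vomeronasal members had no relation past the threshold with apical or basal neuron markers. The highest r was that of Fpr-rs3 with the apical list at 0.562 (permutation p = 0.0571, adjusted p = 0.276, rho 0.559), which was 0.483 without CM library 1 and SF library 1. With the basal list, r was nearly as high for Fpr-rs6 at 0.556 (rho 0.133) and Fpr-rs4 at 0.540 (rho 0.420), and 0.332 for Fpr3. Without CF library 1 and SM library 2 these were -0.472, 0.378 and 0.731. With the apical list, Fpr-rs6, Fpr-rs4 and Fpr3 had r of 0.044, -0.099 and 0.373.

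The genes with the most similar pattern over the 12 VNO libraries, by Pearson's r among 13848 or 13849 genes, were for Fpr1 the tumor necrosis factor receptor gene Tnfrsf1a (0.931), Birc3 (0.901) and the complement factor gene Cfb (0.901). For Fpr2 they were Traf3, Chd2 and Tmem63b, each at 0.933. For the vomeronasal members they were Tex261 (0.928), Otud3 and Nrn1 with Fpr-rs3, Zbtb12 (0.879), Zbtb38 and Sh3bp2 with Fpr3, Wdfy1 (0.879) and Cyb5r4 with Fpr-rs6, and Akap10 (0.906), Psmb8 and Atg2a with Fpr-rs4. No vomeronasal receptor gene was among them. Between the members, r was highest for Fpr2 with Fpr3 at 0.673, and lowest for Fpr1 with Fpr-rs6 at -0.635. Fpr2 and Fpr3 share 77 windows of 50 bases and an annotated first exon stretch, and the part of either in their r was not tested. These values are descriptions, and the libraries share group, depth and tissue composition.

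The other genes of the pathway were taken from 3 lists. Of 6 ligand genes, 3 were measured above the filter, and all 3 were higher in MOE than in OB (limma). Anxa1, whose product annexin A1 binds Fpr2, was at 92.7 ± 17.2 FPKM in VNO, 57.4 ± 9.87 in MOE and 0.998 ± 0.235 in OB (SD, n = 12). It was the only one of the 3 that was higher in VNO than in MOE (log2 difference 0.69), while Camp, the cathelicidin gene, and Ctsg, the gene of the neutrophil protease cathepsin G, were lower there by log2 differences of -1.43 and -0.38. The median of the 3 between VNO and MOE was -0.38, against -0.09 over all genes.

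Of 12 genes that act downstream of the receptors, 11 were called higher and 1 lower in VNO than in MOE, where 35.6% of all genes were called higher, with a median log2 difference of 0.64 against -0.09 over all genes. Gnai2, the inhibitory G protein subunit of apical vomeronasal neurons and of leukocytes, was at 46.1 FPKM in VNO, 14.2 in MOE and 26.8 in OB, and Gnai3 was the gene that was lower. Against OB, 7 of the 12 were called higher in VNO (39.3% of all genes) and 3 lower, among them Gnao1 at 4.85 FPKM in VNO and 11.3 in OB. The 5 genes of the NADPH oxidase, the enzyme of the oxidative burst, were all called higher in VNO than in MOE and in OB, and all higher in MOE than in OB, against 35.6%, 39.3% and 46.6% of all genes. Cybb, its catalytic subunit, was at 3.62 FPKM in VNO, 1.5 in MOE and 0.179 in OB. Fpr1 and Fpr2 themselves passed the threshold against OB in both tissues, but not between VNO and MOE. All 11 macrophage and microglia genes were called higher in VNO than in MOE as well, with a median log2 difference of 0.91.

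Within VNO no gene of the ligand, signalling and oxidase lists was called by sex, housing or their interaction (limma, adjusted p under 0.05). At an unadjusted p under 0.05, limma gave 3 of 11 signalling genes by housing, where 7.57% of all genes were below it and the list's median log2 difference was 0.10. For the macrophage and microglia genes it gave 4 of 11 between CF and CM (3.94% of all genes; median 0.20) and 4 of 11 between females and males over both housings (6.72%; median 0.11), medians that were positive where those of the neutrophil genes were negative (-0.26 and -0.34). Of the apical vomeronasal markers, the receptor gene Vmn1r89 was called lower in SF than in SM, by a log2 difference of -0.78 (adjusted p = 0.0243, limma). Over both housings, 1 of the 7 apical markers was called lower in females than in males as well.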

How the data were processed

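The authors depleted total RNA of ribosomal RNA, sequenced read pairs, aligned them with TopHat2 2.1.0 to mm9 and computed FPKM values per RefSeq transcript with Cufflinks 2.2.1.0 (versions from the submitters' processing notes). They deposited these FPKM values with confidence limits, in 1 table per library. Their handling of reads that map to several genes is not given in the sources used here. Entries were mapped to symbols by accession (99.7%) and summed by gene, without genes that had a failed entry (5 in MOE and 1 in each other tissue). Dividing each FPKM by the standard error from its limits and squaring gave the fragments behind it.

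Groups came from the labels. limma 3.58.1 (R 4.3.3; lmFit, eBayes with trend) was fitted on log2(FPKM + 0.5) within each tissue (mean FPKM of at least 0.5, or 0.1 for the immune members) and over 36 libraries (at least 0.1), after a test on simulated data, with Benjamini-Hochberg adjustment over all genes. Relations used 100000 permutations in scipy 1.17.1 (Python 3.11.15), and coding sequences were aligned with mafft 7.526. The members, the gene lists and the comparisons were chosen with earlier results of these data known. Named genes were the members, their neighbours on the chromosome, the 3 genes most alike in pattern to each (1 of which, for Fpr-rs6, is not reported here), and of each list the highest gene and those called; Trpc2, Csf3r, Cxcr2, Ngp, Mpo, Cybb, Vmn2r91, Vmn2r96 and further list genes were named after their values were seen. Alternatives were pseudocounts of 0.1 and 1, other filters, quantile and upper quartile scaling, a replicate block, fits limited to the groups compared, and fits without each library.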

Additional observations from a re-analysis of the deposited data

How the results depend on the processing

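With a minimum mean of 0.5 FPKM over the 36 libraries, only 2 members, Fpr-rs3 and Fpr3, entered the tissue fit, so the numbers called were 2 between VNO and MOE, 2 between VNO and OB and 0 between MOE and OB. Quantile normalization also gave 0 calls between MOE and OB, and the cause was not tested. Leaving out 1 library at a time kept the members called at 4 to 5 between VNO and MOE, 6 between VNO and OB, 2 between MOE and OB and 0 within each tissue. Single log2 differences that changed sign in these fits were never called: the interaction in VNO ran from -0.061 to 0.17 for Fpr-rs3, from -0.11 to 0.22 for Fpr3 and from -0.17 to 0.30 for Fpr-rs6, the SF to SM difference of Fpr-rs4 from -0.017 to 0.26, and the housing difference of Fpr-rs6 from -0.020 to 0.20. The size of a log2 difference depends on the pseudocount: between VNO and MOE, Fpr-rs3 was at 5.18 with 0.1 and 2.28 with 1, Fpr3 at 4.16 and 1.47, Fpr-rs6 at 2.73 and 0.67, and Fpr-rs4 at 2.57 and 0.61. The relation of Fpr1 to neutrophil genes kept an r of 0.820 to 0.929 without each library (like the values within housings and sexes, chosen after seeing the data) and was 0.902 with a pseudocount of 0.1. With upper quartile scaling, 8012 of 14579 called genes were higher in VNO than in MOE, against 6218 of 14232, and 8825 of 14740 were higher in VNO than in OB, against 6860 of 14459, while the median of all genes between VNO and OB moved from -0.03 to 0.15.

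The replicate numbers were not used as pairs in the main fits. Same-numbered libraries of different groups had deviations correlated over 0.1 in 8 of 18 pairs in VNO, 3 of 18 in MOE and 2 of 18 in OB. For libraries with different numbers this was 4 of 36 in VNO, 2 of 36 in MOE and 6 of 36 in OB. In VNO 10 of 12 libraries correlated best with their own number, in MOE 5 of 12 and in OB 3 of 12. The VNO libraries thus shared some structure by replicate number, and its source was not tested. With a replicate block no count of called members changed (4 between VNO and MOE, 0 by sex or housing in VNO), and Fpr-rs3 by housing had an adjusted p of 0.595 (limma). Between SF and SM in VNO the block moved the number of genes called from 10 to 7. Depth limits the immune members and Fpr-rs4, which rested on at most 12 fragments in any VNO or MOE library.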
